A study of Rattus norvegicus with 19 samples.

Results

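The respiratory chain of rat liver was followed through the nuclear genes of its subunits. Members were the array probes whose gene name, or current symbol found by accession or synonym, begins with Nduf, Sdh (a to d), Uqcr, Cox4 to Cox8 or Atp5, or is Cycs. These were 103 probes of 84 genes, of 41012 non-control probes in all. Of these, 96 probes of 78 genes were bright enough to be used, among 22218 features tested (10921 named genes and 11297 probes without a gene name). The 78 were 31 subunits of complex I, 4 of complex II, 5 of complex III, cytochrome c, 12 subunits of complex IV, 16 of complex V, 6 complex I assembly factors (the Ndufaf genes, taken in by their names and described apart), Ndufa13-ps1, whose current symbol marks a pseudogene, and a pair of genes known today by other names. That pair was Emc8, a subunit of an endoplasmic reticulum complex once named Cox4nb, and Dmac2l, once named Atp5s.

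Liver RNA came from 19 male Wistar rats, housed singly, that began 1 of 3 diets when 8 weeks old, ate it for 4 months and were killed fed, early in the morning. In the control diet (Control, 7 rats) carbohydrate supplied 70% of the energy, fat 10% and protein 20%. In the high protein diet (HP, 6 rats) the shares were 45% carbohydrate, 10% fat and 45% protein, mostly casein, so its fat share was that of the control diet. The high fat diet (HF, 6 rats) held 20% carbohydrate, 60% fat and 20% protein, so its protein share was that of the control diet. HP and HF therefore differ from each other in all 3 nutrients. On each array, Cy5-labelled RNA from a single rat was hybridised together with a Cy3-labelled pool of liver RNA common to all arrays, with no dye swap. All values below are log2 ratios of rat to pool, which have no meaning as a level between genes, and differences between diets are differences of these ratios. The labels describe separate animals. Whole liver was used, so fewer cells of a type and less RNA per cell cannot be told apart.

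The respiratory chain sits in the inner mitochondrial membrane. Complex I takes electrons from NADH and complex II from succinate, ubiquinone carries them to complex III, cytochrome c carries them on to complex IV, and complex IV hands them to oxygen. Complexes I, III and IV pump protons, and complex V, the ATP synthase, lets protons flow back and makes ATP. In hepatocytes the chain disposes of the reducing power of fatty acid and amino acid breakdown and pays for gluconeogenesis and urea synthesis.

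The probes used for the 78 members were well above background on all 19 arrays, with no saturated spot and no missing value. For Cox8b that probe, matched by synonym, lies on the strand opposite to the probe with the RefSeq accession, which was well above background on 2 Control, 0 HP and 4 HF arrays. Its value is therefore not read as that of the Cox8b mRNA, although it is among the 12 counted for complex IV. The other 6 members were too dim to be kept and were not tested between diets. Uqcrq, Cox8c and Ndufaf2 were not well above background on any array. Cox6b2 and Cox6c-ps1 passed on 1 Control array and no other, and Cox6b1 on 1 Control and 1 HP array. The probe counted as Cox6b1 is described in the files as a uroplakin, so its identity is uncertain. Between the rats of a diet, the members varied little. The median standard deviation (SD) within diets was 0.11 over the members and 0.14 over all features, from 0.059 for Ndufc2, a membrane arm subunit of complex I, to 0.38 for Atp5if1, the inhibitor protein of ATP synthase.

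**Figure D1:**
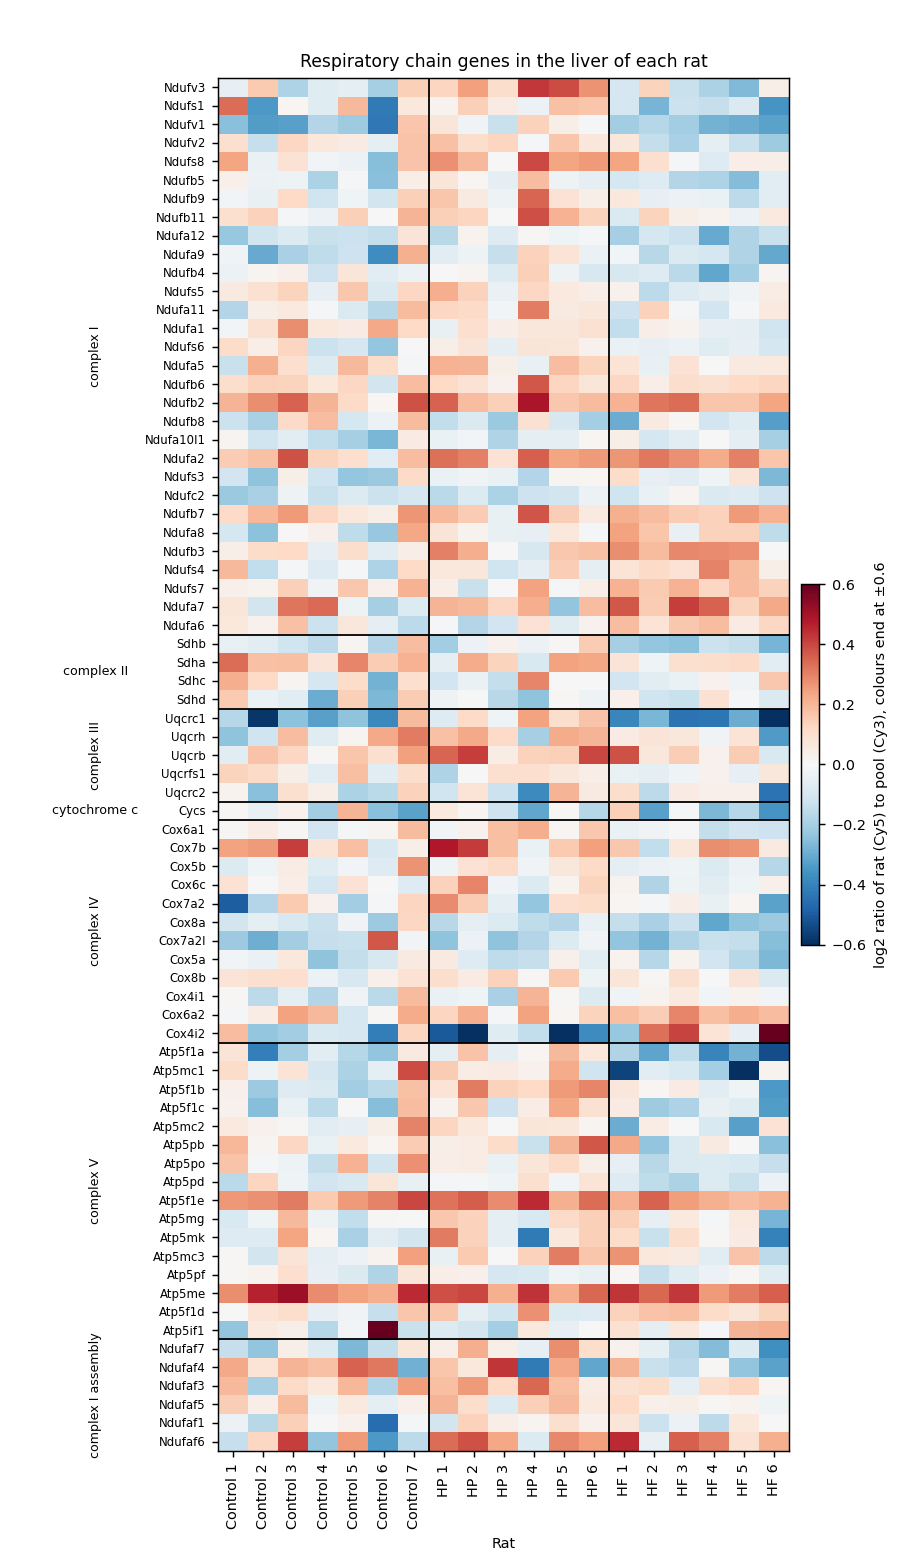
Log2 ratio of rat (Cy5) to common pool (Cy3) for 74 subunits and complex I assembly factors (rows, by complex, sorted within a complex by HP minus HF) in 19 rats (columns, by diet); colours end at ±0.6. Single rats stand out across many rows, such as Control 7 on the high side and HP 4 on both sides, and Atp5if1 in Control 6 (1.48) lies beyond the colour range.

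Some rats stood high or low in many members at a time. Control 7 had the highest value among the 7 Control rats in 37 of 78 members, and Control 6 had the lowest in 31. HP 4 was the highest HP rat in 32 members and the lowest in 21, and HP 3 the lowest in 34. HF 6 was the lowest HF rat in 37. The median over all members ran from -0.10 (Control 6) to 0.13 (Control 7) in Control, from -0.023 to 0.077 in HP and from -0.069 to 0.05 in HF, so the 2 ends of the whole range were both Control rats.

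The library of Control 6 stood apart from the other 18. The median log2 ratio of its lymphocyte markers was 2.72, against -1.34 to -0.95 in the others, and the SD of its log ratios over all features was 0.45 against 0.20 to 0.29. All 10 hepatocyte markers looked for were measured, against 0 of 3 adipocyte, 1 of 4 skeletal muscle and 1 of 4 pancreas markers. Arrays lay on 5 slides, each with 3 or 4 rats, and Control rats were on all 5. HP rats were on slides 1, 4 and 5 and HF rats on slides 1, 2 and 3, so the 2 diets met only on slide 1 (2 HP rats and 1 HF rat).

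Compared with the control diet, the high protein diet called no member. In limma's test, with p-values adjusted over all 22218 features, 0 of 78 members passed an adjusted p of 0.05, where 0.414% of all features did (0.275% higher and 0.14% lower). At an unadjusted p of 0.05, 10 members passed (9 higher and 1 lower in HP), against 14.3% of all features. The members' median difference was 0.051, beside -0.0098 over all features, and 57 of 78 lay above 0 (73.1%, against 46.3% of all features). No member had HP and Control rats without overlap, as 0.779% of all features did (0.495% with HP above and 0.284% with HP below). By complex, the median HP minus Control difference was 0.064 for complex I (26 of 31 above 0), -0.036 for complex II (1 of 4), 0.080 for complex III (3 of 5), 0.035 for complex IV (9 of 12), 0.040 for complex V (11 of 16) and 0.12 for the assembly factors (5 of 6). Leaving out 1 rat moved several of these: complex II lay between -0.081 (without Control 6) and -0.0041 (Control 1), complex III between 0.032 (Control 1) and 0.14 (HP 4), complex IV between 0.024 (Control 5) and 0.059 (Control 7), complex V between 0.019 (Control 4) and 0.058 (Control 7), and the assembly factors between 0.063 (Control 6) and 0.14 (Control 3).

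The members of smallest p in that comparison were Ndufv3, an accessory subunit of the NADH-binding module of complex I (0.30 ± 0.08 SE, adjusted p = 0.0953 by limma), Atp5f1b, the catalytic beta subunit of ATP synthase (0.28 ± 0.07, 0.105), Uqcrc1, a core protein on the matrix side of complex III (0.34 ± 0.09, 0.111), and Ndufv1, the complex I subunit that binds NADH and its flavin (0.24 ± 0.07, 0.152). The next were Ndufaf7 (0.21), Ndufs8, an iron-sulphur core subunit of complex I (0.21), Atp5f1a (0.19), Cox4i2 (-0.31), Dmac2l (0.17) and Ndufaf6 (0.25), with limma adjusted p between 0.187 and 0.342. Without Control 7, 4 members passed (5.13%, where 1.68% of all features did): Ndufv1 (adjusted p = 0.0117, limma), Uqcrc1 (0.0120), Atp5f1b (0.0280) and Ndufv3 (0.0385). Control 7 was the highest Control rat for Uqcrc1, at 0.19, where the other 6 lay between -0.58 and -0.17,, and for Ndufv1, at 0.17.

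The high fat diet also called no member against the control diet. Of 78 members 0 passed, where 3.64% of all features did by limma (1.84% higher and 1.8% lower), and 16 had an unadjusted p under 0.05 (7 higher and 9 lower in HF), against 15.8% of all features. The median was -0.025, beside -0.0085 over all features, and 31 of 78 lay above 0 (39.7%, against 46.8%). No member had separate HF and Control rats, as 1.97% of all features did (0.824% with HF above and 1.15% with HF below). The complex medians were 0.011 (complex I), -0.093 (complex II), -0.059 (complex III), -0.047 (complex IV), -0.052 (complex V) and -0.012 (assembly factors). With 1 rat left out the sign changed for complex I (-0.017 without Control 6) and complex III (0.0061 without HF 6). It also changed for the assembly factors (0.01 without Control 7). Complex I kept its sign without Control 7, at 0.045. Complexes IV and V came to -0.013 without HF 2 and -0.021 without Control 7.

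Smallest p belonged to Ndufa1, a small membrane subunit of complex I. Its log2 ratio was lowest at -0.016, with median 0.091 and highest 0.28 in Control, -0.15, -0.054 and 0.042 in HF, and -0.047, 0.068 and 0.10 in HP. Control and HF overlapped, and HF minus Control was -0.17 ± 0.05 (adjusted p = 0.0753, limma). It passed without Control 1 (adjusted p = 0.0474, limma), as 2.83% of all features did then. The following 9 were Ndufv2 (-0.16), Ndufb3 (0.18), Atp5mc1 (-0.29), Cox8a (-0.13), Sdhb (-0.15), Atp5po (-0.15), Ndufa7 (0.23), Sdha (-0.15) and Ndufa6 (0.13), with limma adjusted p between 0.16 and 0.255. Both signs occurred within complex I, where the accessory subunits Ndufb3, Ndufa6 and Ndufa7 had higher means in HF than in Control, and Ndufa1 and Ndufv2 lower ones.

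Between the high protein and high fat diets, 7 of 78 members differed in limma's test (adjusted p under 0.05). That is 8.97% of the members, close to the 7.02% of all features called. Of the 7, 6 were higher in HP (3.62% of all features were) and 1 was lower (3.4%). At an unadjusted p of 0.05, 26 members passed (23 higher and 3 lower in HP), against 20% of all features. HP minus HF had a median of 0.078 over the members and -0.0033 over all features, and 59 of 78 lay above 0 (75.6%, against 48.8% of all features). In 9 members every HP rat lay above every HF rat, and in 0 below, where 2.75% and 2.25% of all features did so (5% in either direction). The same Control rats serve both comparisons above, and HP and HF rats enter 2 comparisons each, so these counts are not independent of one another.

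**Figure D2:**
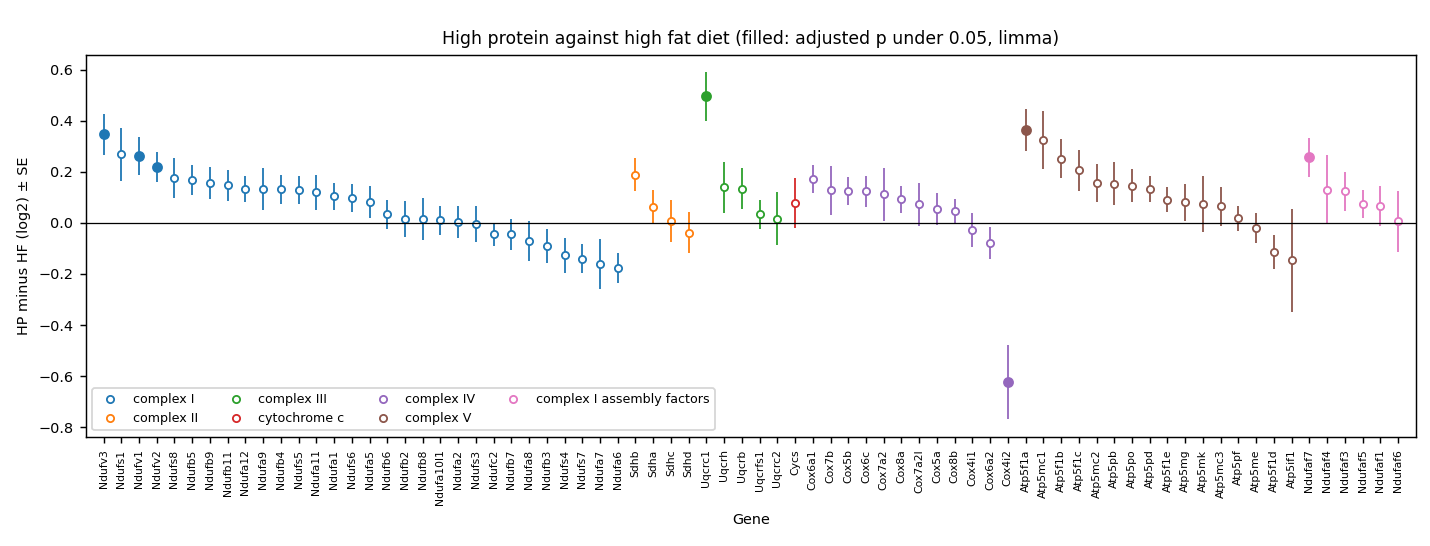
HP minus HF difference (log2, y axis) with its standard error for 74 subunits and complex I assembly factors (x axis), by complex; filled points passed an adjusted p of 0.05 in limma. Uqcrc1 (0.49) and Cox4i2 (-0.62) are the extremes, and most other members lie within 0.2 of 0.

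The HP against HF calls rested largely on rats from different slides. With the slide as a block, 0 of 78 members passed, and 343 of all features (1.54%) did. In that fit 10 members had an unadjusted p under 0.05, against 13.3% of all features, 59 of 78 lay above 0 and the median over the members was 0.072. The standard errors grew, from a median of 0.067 to 0.088. Within slide 1 alone, with 2 HP rats and 1 HF rat, the median was 0.012 and 42 of 78 lay above 0. Diet and slide are therefore only partly separated in what follows, and the blocked value is given with each called member.

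Some hepatocyte markers differed in this comparison. Of 10, 4 were called higher in HP than in HF, where 7.02% of all features were called (3.62% higher). These were Alb (albumin, 0.41 ± 0.11), Cps1 (the entry enzyme of the urea cycle, 0.60 ± 0.13), Serpina1 (0.41 ± 0.09) and Ttr (0.33 ± 0.06). Within slide 1 these 4 differed by 0.030, 0.49, 0.51 and 0.32. The rest of the list was not called, and the median over all 10 was 0.15. Cps1 was also called higher in HP than in Control (0.62 ± 0.13), and with the slide as a block Ttr alone of the 4 passed (adjusted p = 0.0443, limma). The median of the list in a rat ran from 0.20 to 0.41 in HP, from 0.14 to 0.26 in HF and from 0.061 to 0.35 in Control. Their part in the result was not tested. The other marker lists had these counts called in HP against HF: 0 of 6 lymphocyte, 0 of 6 Kupffer cell, 0 of 5 endothelial, 1 of 6 stellate (Reln, -0.35), 0 of 4 cholangiocyte and 0 of 3 erythroid markers.

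Complex I held 3 of the 7 calls, from 31 subunits, where 7.02% of all features were called. All 3 belong to the module at the tip of its matrix arm, where NADH is oxidised, and none passed with the slide as a block. Ndufv1 binds NADH and flavin mononucleotide. Its log2 ratio was -0.43 at its lowest, -0.25 in the median and 0.17 at its highest in Control, -0.13, 0.012 and 0.14 in HP, and -0.32, -0.24 and -0.17 in HF. Every HP rat lay above every HF rat. Control 7 lay above every HP rat, while the other Control rats lay between -0.43 and -0.17, below every HP rat. HP minus HF was 0.26 ± 0.08 (adjusted p = 0.0427, limma) and 0.21 ± 0.10 with the slide as a block (adjusted p = 0.363, limma).

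Ndufv2, which carries an iron-sulphur cluster beside the flavin, ran from -0.14 through a median of 0.061 to 0.17 in Control, from -0.012 through 0.12 to 0.17 in HP, and from -0.22 through -0.14 to 0.07 in HF. A single HF rat, HF 1, reached into the HP range. HP minus HF was 0.22 ± 0.06 (adjusted p = 0.0302, limma) and 0.15 ± 0.08 with the slide as a block (0.433). Ndufv3, an accessory subunit bound to the same module, ran from -0.20 through -0.052 to 0.16 in Control, from 0.11 through 0.26 to 0.42 in HP and from -0.26 through -0.12 to 0.13 in HF. HP and HF overlapped by 1 HF rat (HF 2), and the difference was 0.35 ± 0.08 (adjusted p = 0.0110, limma), with 0.34 ± 0.11 (0.141) with the slide as a block. Within slide 1 the differences of Ndufv1, Ndufv2 and Ndufv3 were 0.31, 0.011 and 0.38.

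The third core subunit of that module, Ndufs1, which holds several iron-sulphur clusters, did not pass (0.27 ± 0.10, adjusted p = 0.130, limma), although its HP rats (-0.036 to 0.17) all lay above its HF rats (-0.35 to -0.087). Its Control rats spread more widely, from -0.43 to 0.34. The median over the 3 core subunits of the NADH module was 0.26. Over its 5 accessory subunits, Ndufv3 among them, it was 0.096 (from -0.13 to 0.35, with 4 above 0). Of the core subunits nearer to ubiquinone, Ndufs7 was -0.14 (adjusted p = 0.152, limma), Ndufs3 -0.0037 and Ndufs8 0.17 (0.213). The 24 accessory subunits had a median of 0.057 with 17 above 0. Among them Ndufb5 was 0.17 ± 0.06 (adjusted p = 0.101, limma), with all HP rats above all HF rats, and Ndufa6 was lowest at -0.18 ± 0.06 (0.0796).

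Of the 6 measured complex I assembly factors, all above 0 in HP minus HF, 1 passed. Ndufaf7 is a methyltransferase that acts early in the assembly of complex I. It ran from -0.27 through -0.14 to 0.072 in Control, from -0.047 through 0.072 to 0.28 in HP and from -0.37 through -0.13 to 0.024 in HF. HP and HF overlapped, and the difference was 0.26 ± 0.08 (adjusted p = 0.0454, limma), with 0.20 ± 0.11 (0.455) with the slide as a block and -0.028 within slide 1. The other 5 lay between 0.0054 (Ndufaf6) and 0.13 (Ndufaf4).

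Complex II, the succinate dehydrogenase that also serves the citric acid cycle, had no call in any comparison. In HP minus HF, the flavoprotein Sdha was 0.063 ± 0.065, the iron-sulphur subunit Sdhb 0.19 ± 0.06 (adjusted p = 0.0818, limma), and the membrane anchors Sdhc and Sdhd 0.008 ± 0.082 and -0.038 ± 0.081. Sdhb ran from -0.18 through -0.065 to 0.18 in Control, from -0.21 through -0.014 to 0.15 in HP and from -0.28 through -0.21 to -0.13 in HF. HF lay low and narrow, and it overlapped both other groups. Against Control, HF was -0.15 for both Sdha and Sdhb, with limma adjusted p of 0.227 and 0.217.

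Complex III held the member of smallest p in this comparison. Uqcrc1 ran from -0.58 through -0.24 to 0.19 in Control, from -0.076 through 0.11 to 0.24 in HP and from -0.60 through -0.41 to -0.27 in HF. Every HP rat lay above every HF rat. Of the Control rats, Control 7 lay within the HP range and the other 6 lay below every HP rat. HP minus HF was 0.49 ± 0.10, a 1.41-fold difference (adjusted p = 0.00329, limma), and 0.37 ± 0.13 with the slide as a block (0.224). Within slide 1 it was 0.47. Its partner core protein Uqcrc2 gave 0.016 ± 0.10, Uqcrh, the hinge protein, 0.14 ± 0.10, Uqcrb 0.13 ± 0.08 and the Rieske iron-sulphur protein Uqcrfs1 0.033 ± 0.056. Cyc1, cytochrome c1, lies outside the rule for members and was called too, at 0.33 ± 0.07 (adjusted p = 0.00914, limma), with 0.33 ± 0.09 (0.0688) with the slide as a block. Its HP rats (0.021 to 0.34) all lay above its HF rats (-0.23 to -0.034). Cytochrome c itself (Cycs) differed by 0.076 ± 0.098, with HP from -0.31 to 0.059 and HF from -0.36 to 0.14.

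Complex IV had 1 call, in the other direction. Cox4i2 encodes the second isoform of subunit 4, best known from lung and from low oxygen. It ran from -0.41 through -0.10 to 0.18 in Control, from -0.71 through -0.44 to -0.072 in HP and from -0.23 through 0.21 to 0.69 in HF. The HP and HF rats overlapped, and both groups were wide. HP minus HF was -0.62 ± 0.15, or 1.54-fold lower in HP (adjusted p = 0.0124, limma), and -0.56 ± 0.22 with the slide as a block (0.291). Within slide 1 it was -0.10. Its Control mean lay between the 2 diets, with HP minus Control -0.31 and HF minus Control 0.31, neither of which passed. The common isoform Cox4i1 differed by -0.029 ± 0.065.

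The other isoforms of complex IV did not pass between HP and HF. The liver form Cox6a1 was 0.17 ± 0.05 (adjusted p = 0.0665, limma) and the heart and muscle form Cox6a2 -0.080 ± 0.063. Cox7a2 was 0.11 ± 0.10 and Cox8a 0.093 ± 0.053. For Cox8b, the heart and muscle form of that subunit, the usable probes disagreed, at 0.045 on the opposite strand and -0.034 for the RefSeq probe. Cox5b had all HP rats (-0.026 to 0.12) above all HF rats (-0.17 to -0.028) by a narrow margin, with a difference of 0.12 ± 0.06 (0.217). The other usable probe of Cox5b gave 0.030. Cox7a1 was not analysed here. Of the 12 subunits, 9 lay above 0 and the median was 0.082.

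Complex V had 1 call, in its catalytic head. Atp5f1a, the alpha subunit, ran from -0.41 through -0.17 to 0.079 in Control, from -0.061 through 0.04 to 0.19 in HP and from -0.53 through -0.30 to -0.15 in HF. Every HP rat lay above every HF rat, and the difference was 0.36 ± 0.08, or 1.29-fold (adjusted p = 0.00985, limma), with 0.23 ± 0.11 (0.364) with the slide as a block and 0.16 within slide 1. Atp5f1b, the beta subunit, ran from -0.22 through -0.085 to 0.18 in Control, from 0.081 through 0.20 to 0.31 in HP and from -0.34 through -0.0084 to 0.067 in HF. HP and HF did not overlap, Control overlapped both, and the difference between HP and HF just missed (0.25 ± 0.08, adjusted p = 0.0521, limma).

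Of the remaining head subunits, Atp5f1c was 0.21 ± 0.08 (0.147), Atp5f1e 0.091 ± 0.048 and Atp5f1d -0.12 ± 0.07 (0.361). The 3 genes that encode the identical c subunit of the rotor ring gave 0.32 ± 0.11 for Atp5mc1 (adjusted p = 0.0955, limma), 0.16 ± 0.07 for Atp5mc2 (0.238) and 0.065 ± 0.076 for Atp5mc3. The other usable probe of Atp5mc2 gave 0.0018. Atp5mc1 varied widely in HF, from -0.68 to 0.02. The stalk subunits Atp5pd (0.13 ± 0.05) and Atp5po (0.15 ± 0.06) had all HP rats above all HF rats without passing. Atp5if1 gave -0.15 ± 0.20, and Control 6 (1.48) lay far above the other Control rats (-0.24 to 0.058).

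**Figure D3:**
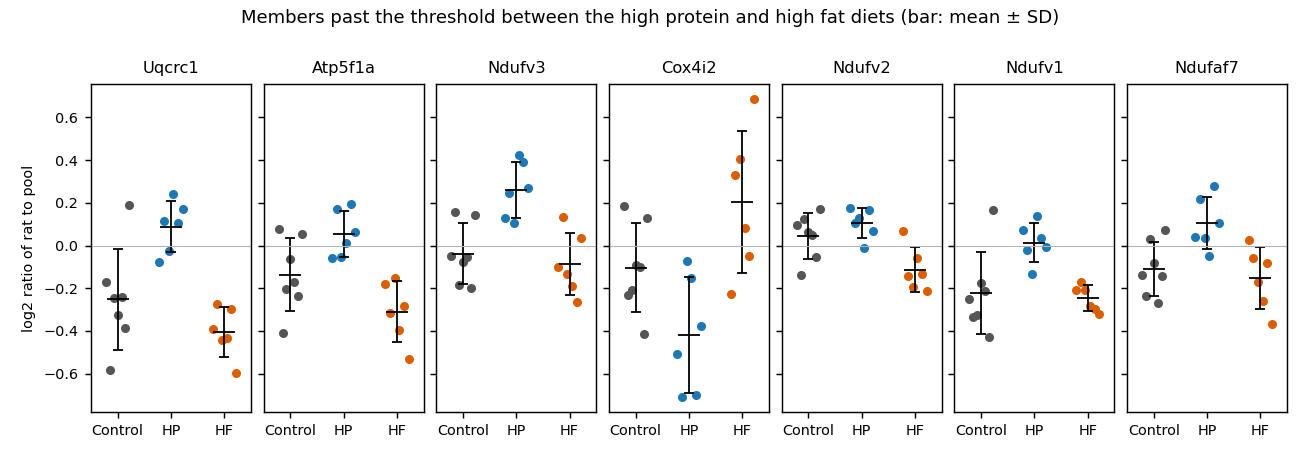
Log2 ratio of rat to pool (y axis) for the 7 members called between HP and HF, in each rat (points) by diet, with mean ± SD (bars). HP and HF do not overlap for Uqcrc1, Atp5f1a and Ndufv1, and Control overlaps both other diets for each of the 7.

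Over the 3 diets together, limma's F test called 5 of 78 members, where 6.58% of all features were called. These were Uqcrc1 (adjusted p = 0.00767, limma), Ndufv3 (0.0167), Atp5f1a (0.0256), Cox4i2 (0.0319) and Atp5f1b (0.0423). Leaving out each rat in turn ended no call of Uqcrc1, Atp5f1a, Ndufv3 or Cox4i2 between HP and HF in any of 19 omissions. Ndufv2 was lost without HP 1, 2, 3 or 5 or HF 2, 3, 5 or 6 (adjusted p up to 0.0726, limma). Ndufaf7 was lost without Control 1 or 4, HP 1, 2, 3, 5 or 6, or HF 2, 3, 4, 5 or 6 (up to 0.104), and Ndufv1 without Control 1, 4 or 5, any HP rat but HP 3, or any HF rat (up to 0.0887). The count of members called was 4 (5.13%) without HP 2, HP 5, HF 2, HF 3, HF 5 or HF 6, 1 rat at a time, where between 5.16% and 5.94% of all features were called. It was 8 (10.3%, beside 9.87% of all features) without Control 6 and 10 (12.8%, beside 7.37%) without Control 7. By the F test it was 2 (2.56%) without HP 2, HP 5 or HF 2, where 4.98%, 5.63% and 5.14% of all features were called.

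**Figure D4:**
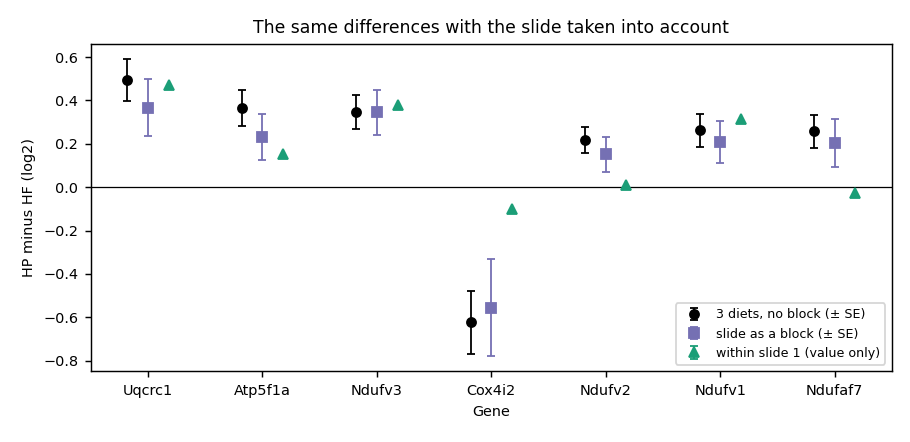
HP minus HF difference (log2, y axis) of the 7 called members from the fit over 3 diets (circles, ± SE), from the fit with the slide as a block (squares, ± SE) and within slide 1, with 2 HP rats and 1 HF rat (triangles, no error). The blocked values keep their sign with wider errors. Within slide 1 Ndufaf7 changes sign (-0.028), and Ndufv2, Cox4i2 and Atp5f1a shrink to 0.011, -0.10 and 0.16. Uqcrc1, Ndufv1 and Ndufv3 stay close to the values of the fit over 3 diets.

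In whole complexes, rat medians overlapped between diets. In complex I the rat medians ran from -0.13 through -0.0089 to 0.12 in Control, from -0.038 through 0.070 to 0.13 in HP and from -0.039 through -0.0026 to 0.051 in HF. For complex V they ran from -0.061 to 0.17 in Control, from -0.032 to 0.15 in HP and from -0.11 to 0.079 in HF. The medians of HP minus HF were 0.080 (complex I), 0.036 (II), 0.13 (III), 0.082 (IV), 0.11 (V) and 0.098 (assembly factors), where the SD of a complex median between rats of a diet was 0.065, 0.11, 0.12, 0.058, 0.071 and 0.091. Complex II was 0.022 without HF 2 and 0.064 without HP 1, and complex III 0.073 without HF 6.

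**Figure D5:**
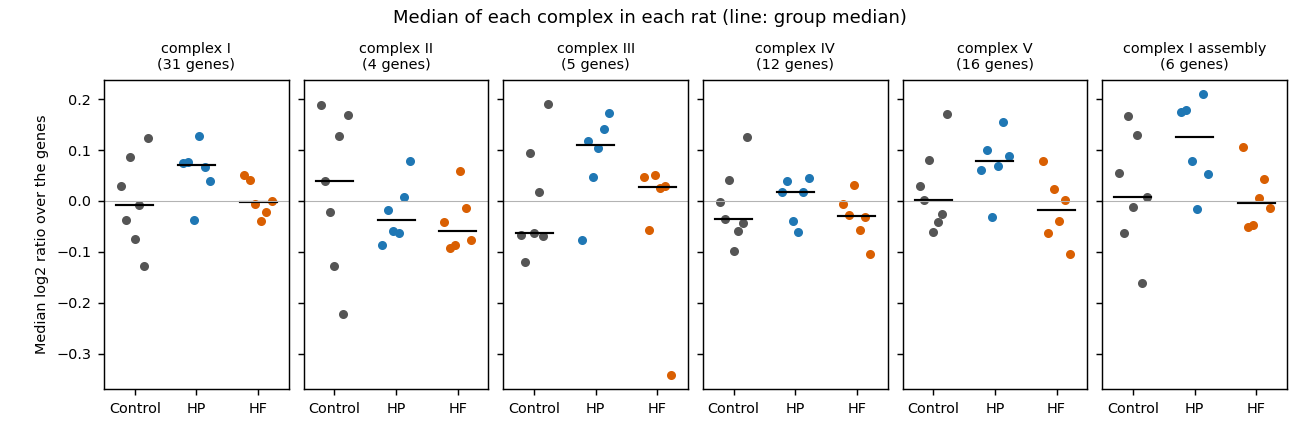
Median log2 ratio to the pool over the genes of each complex (y axis) in each rat (points) by diet, with the group median (line). The diets overlap in every complex, and HF 6 (-0.34) lies apart for complex III.

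The promoters of the called subunits of complexes I and III are shown as examples. Atp5f1a and Ndufaf7, also called higher in HP than in HF, are not shown. Nuclear respiratory factors are known to bind promoters of respiratory chain genes, and their part in the differences between diets was not tested. Each run is the 250 bases before the transcription start on the gene's strand, from RefSeq on GRCr8. Capitals mark matches, on either strand, to the letters GCGCANGCG (NRF-1), CCGGAAG (the ETS factor GABPA) or ATGGCGG (YY1).
Ndufv1, chr1:210734892-210735141, - strand: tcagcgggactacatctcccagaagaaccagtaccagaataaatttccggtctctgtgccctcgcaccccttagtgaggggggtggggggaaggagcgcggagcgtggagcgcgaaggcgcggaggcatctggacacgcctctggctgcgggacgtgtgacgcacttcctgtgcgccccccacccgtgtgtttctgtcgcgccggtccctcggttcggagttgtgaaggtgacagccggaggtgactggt
Ndufv2, chr9:113157521-113157770, - strand: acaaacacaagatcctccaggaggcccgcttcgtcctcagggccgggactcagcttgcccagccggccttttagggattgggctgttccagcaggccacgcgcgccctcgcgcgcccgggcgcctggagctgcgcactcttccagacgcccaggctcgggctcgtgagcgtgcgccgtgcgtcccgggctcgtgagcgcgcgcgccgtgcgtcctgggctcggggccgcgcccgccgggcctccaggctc
Ndufv3, chr20:9613536-9613785, + strand: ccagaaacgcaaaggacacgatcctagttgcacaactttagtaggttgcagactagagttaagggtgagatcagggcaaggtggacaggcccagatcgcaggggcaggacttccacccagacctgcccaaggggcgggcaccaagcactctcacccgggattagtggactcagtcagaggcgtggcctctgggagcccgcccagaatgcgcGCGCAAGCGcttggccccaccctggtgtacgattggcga
Uqcrc1, chr8:118467973-118468222, + strand: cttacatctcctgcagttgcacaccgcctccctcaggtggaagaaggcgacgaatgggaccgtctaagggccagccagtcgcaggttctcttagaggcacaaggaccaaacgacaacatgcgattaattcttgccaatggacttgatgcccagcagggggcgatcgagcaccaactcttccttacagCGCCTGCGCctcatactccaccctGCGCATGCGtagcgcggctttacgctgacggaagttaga

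Uqcrc1 holds a pair of NRF-1 matches, starting 63 and 39 bases before the start, and Ndufv3 holds one at 39 bases. None of the 3 motifs is spelled in the windows of Ndufv1 and Ndufv2. Of 84 members, 72 were found in the RefSeq table. The NRF-1 letters were in 18 of these 72 windows (25%) and in 5.53% of 27457 promoters of the same length. The shares were 29.2% and 7.74% for GABPA, 9.72% and 2.54% for YY1, and 54.2% and 14.2% for any of the 3. A further motif searched for, GGGCGG (Sp1), is not marked in the sequences. Its shares lay closer together, at 41.7% and 32.4%, and the Ndufv3 window holds 2 matches to it. Matches to different motifs can overlap, and members outside the 7 calls hold them too, among them Sdha, Cycs and Atp5po.

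The probes of the called members lie, in the rn4 coordinates of the scanner files, at chr8:113961444-113961503 (Uqcrc1), chr18:74739347-74739406 (Atp5f1a), chr20:9952677-9952736 (Ndufv3), chr3:143114063-143114122 (Cox4i2), chr1:206589998-206590021 (Ndufv1), chr9:104854294-104856104 (Ndufv2) and chr6:1720961-1721919 (Ndufaf7). No annotation of that build was used, so the exon or UTR of each is not given. Each of the 7 had 1 usable probe. Of the 14 members with more than 1, none was called by any probe, and the sign of HP minus HF differed between probes for Cox5a, Cox8b, Ndufa2 and Ndufc2, all near 0. The disagreeing probes lie on opposite strands for Cox5a, Cox8b and Ndufc2.

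Other genes of the pathway were read from 5 lists. For comparison with their counts, 7.02% of all features were called in HP against HF. The shares were 0.414% in HP against Control and 3.64% in HF against Control. Among the 8 measured of 14 further parts of the complexes, which include the subunits encoded by mitochondrial DNA, Cyc1 was called between HP and HF and none against Control. The mitochondrially encoded Mt-nd2, a membrane subunit of complex I, was -0.35 ± 0.12 in HP minus HF (adjusted p = 0.0774, limma), and Mt-co3 of complex IV 0.16 ± 0.10. The second Mt-nd2 probe gave -0.26. Mt-cyb was 0.053, Mt-nd5 0.027 and Mt-atp6 -0.11. Mt-co2 was 0.19, with its probes from -0.26 to 0.26. Mt-co1 varied so widely (SE 0.78) that no difference could be read from it. Of 21 measured assembly factors of the complexes, Timmdc1, which builds complex I, was called higher in HP than in Control (0.26 ± 0.06, adjusted p = 0.0436, limma). Atpaf2, a chaperone of the ATP synthase alpha subunit, was higher in HP than in HF (0.21 ± 0.06, 0.0413).

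Of 16 measured genes of electron entry and ubiquinone, Coq10b (0.74 ± 0.21) and the ubiquinone synthesis enzyme Coq5 (0.26 ± 0.08) were called higher in HP than in HF, and Etfb lower (-0.21 ± 0.06). Etfb, which passes electrons from fatty acid oxidation towards ubiquinone, was also called higher in HF than in Control (0.23 ± 0.06, adjusted p = 0.0201, limma). Of 7 carriers, Slc25a3, the phosphate carrier (0.24 ± 0.06), and Slc25a5, an ADP and ATP exchanger (0.19 ± 0.05), were called higher in HP than in HF. Of 10 regulators, Polg, the polymerase of mitochondrial DNA, was called lower in HF than in Control (-0.34 ± 0.09, 0.0477). None of the calls between HP and HF in these 5 lists passed with the slide as a block.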

How the data were processed

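Spot and surrounding background intensity came from the deposited scanner output, made with Agilent Feature Extraction 10.5.1.1 per the submitters' processing notes. A log2 value table deposited by the authors exists too, whose steps are not given in the sources used here. Its columns share a median of 8.20, and after features were centred it correlated with the log ratios at 0.912 to 0.976 per array. It served as an alternative.

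Local background was handled with normexp (offset 50), leaving out 40 spots (on 5 arrays) that were darker than their surroundings by over 50. Loess within each array, with control spots at weight 0, normalised the log2 ratio (Cy5 over Cy3). Outlier spots were dropped and spots of a probe averaged. In the file of HF 3 a line that joined spots was split. A probe was kept if 6 or more of the 19 arrays had its Cy5 signal well above background, and the brightest stood for a gene. Between 54.2% and 67.5% of probes were above background in Cy5 per array. The precision is limited by the number of arrays.

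limma 3.58.1 (R 4.3.3) was fitted to all 3 diets with Benjamini-Hochberg adjustment over all features. The same fit was run on simulated data with known changes. These held independent noise and no slide effect, so they cannot speak to the slides. The replicate numbers were not treated as pairs in the main fit. After diet means were removed, the mean correlation was -0.011 over 18 like-numbered pairs, against 0.0013 over 102 others. These values cannot tell whether the numbers followed a pairing in the design. Members and lists were chosen with earlier results of these data known. Named in each comparison were the called members, or else the 10 of smallest p, and the succinate dehydrogenase, cytochrome c, c-ring, inhibitor and isoform genes. A member is not reported here by name. Alternatives changed the background step, normalisation, filter, probe choice, blocks and rats.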

Additional observations from a re-analysis of the deposited data

Results flagged for a closer look

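Within each diet, the highest and lowest rat were compared with the others by Dixon's ratio over 37 named members and complex medians. Of 111 such groups, 10 (9.01%) had a rat apart, where chance gives about 1 in 20. HF 6 was apart on the low side for Atp5f1b (-0.34, the others -0.067 to 0.067), Cox7a2 (-0.32, the others -0.043 to 0.042), Ndufb3 (-0.00015, the others 0.19 to 0.29) and the median of complex III (-0.34, the others -0.058 to 0.051). Control 7 was apart on the high side for Ndufv1 (0.17, the others -0.43 to -0.17) and Atp5mc2 (0.30, the others -0.068 to 0.061). Control 6 was apart for Atp5if1 (1.48, the others -0.24 to 0.058). HP 4 was apart for Sdhc on the high side (0.29, the others -0.14 to 0.0036) and for Ndufaf6 on the low side (-0.082, the others 0.23 to 0.38), and HP 5 for Ndufa7 on the low side (-0.24, the others 0.12 to 0.22).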

How the results depend on the processing

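The cause of each change below was not tested. With the array median in place of loess, 14 members (17.9%, beside 5.7% of all features) were called between HP and HF, and with the slide as a block 0 (1.54%). Cy5 alone called 1 member in HP against Control (Atp5f1b, with 0.252% of all features). Of 13 alternatives, rats left out not counted, Ndufv1 lost its HP against HF call in 5 and Ndufaf7 in 6. Ndufv2 and Ndufv3 lost theirs in 2 each, Cy5 alone and the slide as a block. Uqcrc1, Atp5f1a and Cox4i2 lost theirs in 1, the slide as a block. With Cy5 alone, limma adjusted p was 0.225 for Ndufv1, 0.259 for Ndufv2, 0.0771 for Ndufv3 and 0.129 for Ndufaf7. The F test called 3 members from the processed signals (3.85%, beside 6.05%), 2 from Cy5 alone (2.56%, beside 4.82%) and 0 with the slide as a block (2.26%). Leaving out each rat in turn gave 0 to 4 members called in HP against Control, 0 to 1 in HF against Control, 4 to 10 in HP against HF and 2 to 7 by the F test, while 0.081% to 1.68%, 2.72% to 4.1%, 5.16% to 9.87% and 4.96% to 8.45% of all features were called. The replicate number as a block, which leaves Control 7 without a partner, called 2 members in HP against Control (Uqcrc1 and Ndufv1), 0 in HF against Control, 6 in HP against HF and 5 by the F test, beside 0.729%, 2.94%, 6.31% and 6.1% of all features. Of 19 rats, 5 correlated best with a rat of their own number.

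Complex medians moved by more than the SD between rats as follows. In HP minus Control, the deposited matrix gave 0.18 for complex I, 0.081 for II, 0.13 for IV, 0.18 for V and 0.17 for all members. Cy5 alone gave 0.10 for IV and 0.12 for V, and the array median 0.12 for V. The median over all features was 0.053 in the deposited matrix, 0.012 with Cy5 alone and -0.012 with the array median. In the main fit it was -0.0098. Within slide 1, complex II was -0.21 and III 0.23, and within slide 5 complex I was 0.16, II 0.19, the assembly factors 0.24 and all members 0.12. In HF minus Control, complex IV was 0.018 with Cy5 alone (beside 0.0089 over all features) and 0.022 within slide 2. Within slide 1, II was -0.20, III 0.084 and V 0.033, and within slide 3, I was -0.0801, III -0.20, IV -0.12, the assembly factors -0.20 and all members -0.11. In HP minus HF, the deposited matrix gave 0.17 for I, 0.16 for IV, 0.19 for V and 0.15 for all, and the array median 0.17, 0.18, 0.22 and 0.17. The median over all features was 0.031 in the deposited matrix and 0.011 with the array median, against -0.0033 in the main fit. Complex III was 0.0103 with the slide as a block. Within slide 1, III was -0.058, IV 0.011, V 0.00901, the assembly factors -0.074 and all members 0.012, and Ndufaf7 turned to -0.028. Of the other values of medians, 284 moved by less than that SD, as did all 399 with a rat left out.

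The HP against HF values rest on 12 rats that share only 1 slide, and the 95% confidence interval of a member's difference between HP and HF had a half-width from 0.092 to 0.42, with a median of 0.14.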
